A study of Mus musculus with 6 samples.

Results

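The miR-466 and miR-297 repeat miRNAs were followed in marrow progenitor cells, stem cells included, from mice in which the Raptor gene was targeted. Of 2990 probes on the array, 31 carry a mouse name of the miR-466 (21 probes) or the miR-297 (10 probes) group. They were taken by name alone, whatever the letter, arm, star or copy. The family itself was chosen by the cKO against Ctrl differences of these same arrays, in which several of its probes stood among the largest. The values of that contrast are therefore given as a description, and no p-value is attached to a member.

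The study compared 3 cKO mice, with floxed alleles of the Raptor gene (written Rprtf/f in the labels) and Mx1-Cre+, with 3 Ctrl littermates, Rprtf/f and Mx1-Cre-. All were 10-week-old C57BL/6 females, and all 6 received the Cre inducer polyinosinic:polycytidylic acid, 400 µg per injection and 7 injections, so that the Ctrl mice were exposed to it too. Mx1-Cre answers to interferon in many tissues and is not limited to blood cells. Lineage-negative, cKit-positive marrow cells were collected on beads 10 days after the last injection, 1 array per mouse. The deletion was not checked on these arrays.

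Raptor holds the substrate-binding place in mTORC1, the kinase complex that couples nutrients and growth signals to protein synthesis. The miR-466, miR-297, miR-467 and miR-669 genes form a rodent cluster of repeated hairpins in an intron of Sfmbt2, an imprinted gene coding for a Polycomb-group protein, best known from the placenta and embryonic stem cells. Their hairpins are built from simple repeats. In many of them one arm is rich in UG and the other in CA, and either arm can be loaded into Argonaute as a mature miRNA that pairs with messenger RNAs through its seed, bases 2 to 8.

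By RefSeq gene names, 35 mouse genes belong to miR-466 or miR-297, of which 29 lie inside Sfmbt2 on chromosome 2 and 6 elsewhere (GRCm38.p6). The probes carry 15 miRNA names, and 14 of them matched. Of these, 9 have copies only inside Sfmbt2, miR-466f and miR-297a have copies inside and outside it, and miR-466i, miR-466j and miR-466k lie only outside it. miR-466b alone has 8 copies, so its probes may sum over several hairpins.

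RefSeq mature sequences could be matched for 3 of the 25 members that are not -P probes. They are shown with the seed in capitals because miR-466i, which had the largest difference of the family, is CA-rich, while miR-466j and miR-466k are UG-rich and did not pass the test. None of the probes with a partner arm had a matched sequence, so whether the division by arm follows base content was not tested. RefSeq (GRCm38.p6) places miR-466i at chr13:17747552-17747573, miR-466j at chr10:60960802-60960824 and miR-466k at chr3:85467396-85467418, all on the plus strand. The array names miR-466i without an arm, and RefSeq lists it as miR-466i-3p.
miR-466i: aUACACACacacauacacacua
miR-466j: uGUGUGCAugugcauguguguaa
miR-466k: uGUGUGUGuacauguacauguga
The 3 seeds differ, UACACAC in miR-466i, GUGUGCA in miR-466j and GUGUGUG in miR-466k. A and C make up 86.4% of the bases of miR-466i, against 26.1% in miR-466j and 30.4% in miR-466k. The hairpin of miR-466k, at chr3:85467377-85467498, is UG-rich along its whole length and is shown with the mature miRNA in capitals.
Mir466k hairpin: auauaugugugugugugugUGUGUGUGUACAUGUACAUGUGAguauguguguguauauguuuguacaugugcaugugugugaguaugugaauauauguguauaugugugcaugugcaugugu
It holds the letters GUGUGU at 12 overlapping places and ACACAC at none.

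Values are the deposited relative intensities, on a linear scale. Background on each array was set at the 95th percentile of its 38 random-sequence probes, a level of 0.377 to 0.431 on cKO arrays and 0.423 to 0.463 on Ctrl arrays. Of the 31 members, 29 were above background on all arrays of at least 1 group and 27 on all 6 arrays. The 5 blood cell miRNAs used as a check of the tissue summed to 25.3 to 45.3 in cKO and 18.9 to 20.3 in Ctrl, and 4 of them were above background on all 6 arrays. The exception was miR-142-3p, which averaged 0.441 ± 0.0229 in the cKO arrays and 0.425 ± 0.0191 in the Ctrl arrays (SD, n = 3 each), above background on 2 of 3 cKO arrays and no Ctrl array. The 2 red cell miRNAs summed to 0.859 to 1.04 in cKO and 0.968 to 1.64 in Ctrl, and neither was above background on all 6 arrays. The 7 miRNAs of liver, muscle, brain and epithelium summed to 3.10 to 3.25 in cKO and 2.88 to 3.00 in Ctrl. Of those only miR-9 exceeded background on all 6 arrays, and miR-1 on none. The part of these shifts in the results was not tested.

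Total RNA, 5 µg per mouse, was labelled with random octamer primers. Signal from mature miRNAs, their precursors and longer transcripts with the same repeat therefore cannot be told apart, nor can more RNA per cell and more cells that carry it.

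The family divided by arm. Every 3p or star probe with a partner arm on the array was higher in cKO, and no 5p or unstarred partner passed the test. In the limma fit over all 1083 mouse-named probes, at a Benjamini-Hochberg adjusted p under 0.05, 12 of 31 members were past the threshold as higher in cKO (38.7%), where 6.46% of all mouse probes were. None of the 31 was past it as lower, where 0.369% of all mouse probes were. The count was 3 after quantile normalization and 7 without Ctrl replicate 1. The median log2 difference, cKO minus Ctrl, was 0.31 over the members and 0.04 over all mouse probes. With arrays scaled by their snoRNA and GAPDH probes these medians were -0.26 and -0.54, and without cKO replicate 3 they were 0.12 and 0.08. The members' median describes neither arm, since the 9 probes of the 3p or star arm had a median of 1.57 and their 9 partners one of -0.06. All cKO arrays lay above all Ctrl arrays in 15 members, where 15.8% of all mouse probes did so, and in no member did all cKO arrays lie below, where 3.88% did.

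**Figure D1:**
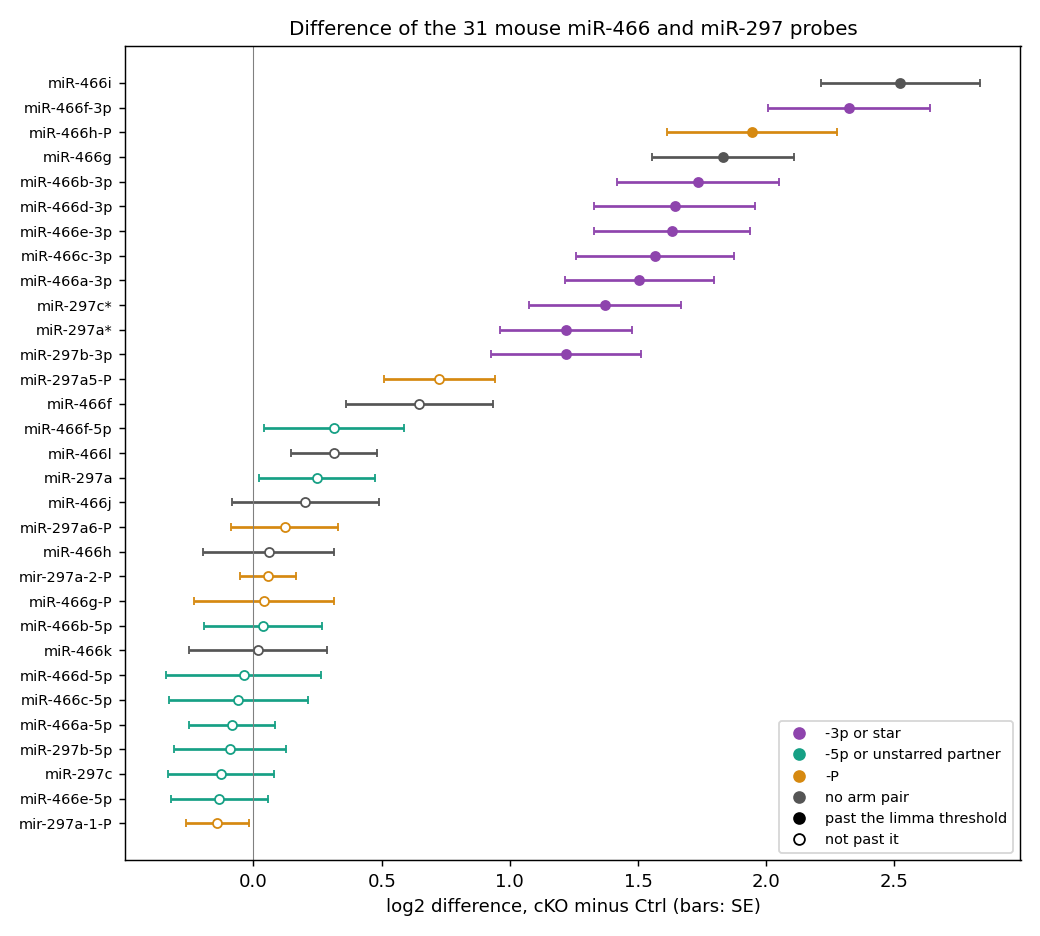
Log2 difference, cKO minus Ctrl, of the 31 mouse miR-466 and miR-297 probes, with the SE of the limma fit as bars. Colours mark the kind of probe and filled points the 12 past the threshold; the 9 probes of the 3p or star arm lie at 1.22 or above and their partners at 0.31 or below.

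miR-466f, with copies inside and outside Sfmbt2, had the largest difference among the 3p probes. miR-466f-3p read 19.1, 22.5 and 26.6 in cKO, against 3.48, 6.51 and 4.01 in Ctrl. The groups were far apart. Its log2 difference was 2.32 ± 0.32 (SE), a fold of 5.01. miR-466f-5p read 5.04, 5.01 and 5.26 in cKO, against 4.24, 3.95 and 4.12 in Ctrl. The groups did not overlap here either, but the log2 difference was 0.31 ± 0.27 (SE) and was not past the threshold. A further probe named miR-466f with no arm read 3.31, 4.84 and 4.73 in cKO, against 2.89, 2.51 and 2.72 in Ctrl, a log2 difference of 0.65 ± 0.29 (SE). By adjusted p it ranked second outside the threshold among the members, after a -P probe of miR-297a, and it passed in no alternative setting.

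The miR-466b, miR-466c, miR-466d and miR-466e hairpins lie in Sfmbt2, and their 3p probes moved alike. miR-466b-3p read 3.40, 3.88 and 7.30 in cKO, against 1.38, 1.37 and 1.39 in Ctrl. Its Ctrl arrays were almost level, while cKO replicate 3 stood well above the other cKO arrays. Its log2 difference was 1.73 ± 0.32 (SE). miR-466d-3p read 3.41, 5.15 and 7.19 in cKO, against 1.56, 1.74 and 1.53 in Ctrl. Its groups did not overlap, and its log2 difference was 1.64 ± 0.31 (SE). miR-466e-3p read 2.99, 3.81 and 6.09 in cKO, against 1.32, 1.24 and 1.43 in Ctrl. Again the groups were apart, with a log2 difference of 1.63 ± 0.30 (SE). miR-466c-3p read 3.42, 4.80 and 6.96 in cKO, against 1.48, 1.70 and 1.74 in Ctrl. The same order of cKO arrays was seen, and the log2 difference was 1.57 ± 0.31 (SE). miR-466a-3p read 2.83, 3.27 and 5.16 in cKO, against 1.21, 1.18 and 1.46 in Ctrl. Its groups were apart, with a log2 difference of 1.51 ± 0.29 (SE). The calls of miR-466a-3p and miR-466c-3p ended without Ctrl replicate 1, and those of all 5 ended after quantile normalization.

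The 5p partners of these 5 hairpins overlapped between the groups. miR-466d-5p read 4.47, 2.93 and 2.71 in cKO, against 3.16, 3.03 and 4.02 in Ctrl. Its cKO replicate 1 was highest, unlike in its 3p partner, where that array was the lowest of the cKO arrays. miR-466c-5p read 2.02, 2.09 and 2.48 in cKO, against 2.26, 1.86 and 2.82 in Ctrl. The group ranges lay largely on top of each other. miR-466e-5p read 0.774, 0.779 and 0.835 in cKO, against 1.06, 0.742 and 0.844 in Ctrl. miR-466a-5p read 0.758, 0.743 and 0.785 in cKO, against 0.794, 0.747 and 0.888 in Ctrl. Their group ranges overlapped too, and both were above background on all 6 arrays. miR-466b-5p read 0.496, 0.540 and 0.847 in cKO, against 0.609, 0.445 and 0.774 in Ctrl, where 2 of 3 Ctrl arrays exceeded background. Log2 differences of the 5 ran from -0.13 for miR-466e-5p to 0.04 for miR-466b-5p, with SEs of 0.17 to 0.30. A change of several SEs could be missed. In the same fit a -P probe of miR-297a (copy 5), at 0.73 ± 0.22 (SE), was not past the threshold.

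The miR-297 hairpins gave the same division at smaller size. miR-297c* read 2.16, 2.57 and 4.54 in cKO, against 1.20, 1.04 and 1.17 in Ctrl. The groups were apart, and the log2 difference was 1.37 ± 0.30 (SE). miR-297b-3p read 1.88, 2.17 and 3.88 in cKO, against 0.949, 1.14 and 1.16 in Ctrl. Its log2 difference was 1.22 ± 0.29 (SE), and with miR-297c* it was the member just inside the threshold. miR-297a* read 1.54, 1.61 and 2.61 in cKO, against 0.654, 0.848 and 0.924 in Ctrl. Its groups were apart as well, with a log2 difference of 1.22 ± 0.26 (SE). The call of miR-297b-3p ended without any 1 Ctrl array and without cKO replicate 2, that of miR-297c* without any 1 Ctrl array, and that of miR-297a* without Ctrl replicate 1. All 3 ended after quantile normalization, that of miR-297b-3p also with median centring, and those of miR-297a* and miR-297b-3p also with arrays scaled by their snoRNA and GAPDH probes.

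The other arms of miR-297 overlapped between the groups. miR-297a read 1.09, 1.25 and 1.51 in cKO, against 1.14, 0.896 and 1.20 in Ctrl. miR-297b-5p read 0.692, 0.776 and 1.18 in cKO, against 0.955, 0.899 and 0.891 in Ctrl. miR-297c read 1.08, 0.871 and 1.17 in cKO, against 1.11, 1.06 and 1.21 in Ctrl. Their log2 differences were 0.25 ± 0.23, -0.09 ± 0.22 and -0.13 ± 0.21 (SE), of both signs and none past the threshold. Across the family, no partner arm was past the threshold in the main fit or in any of the 17 alternative settings.

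**Figure D2:**
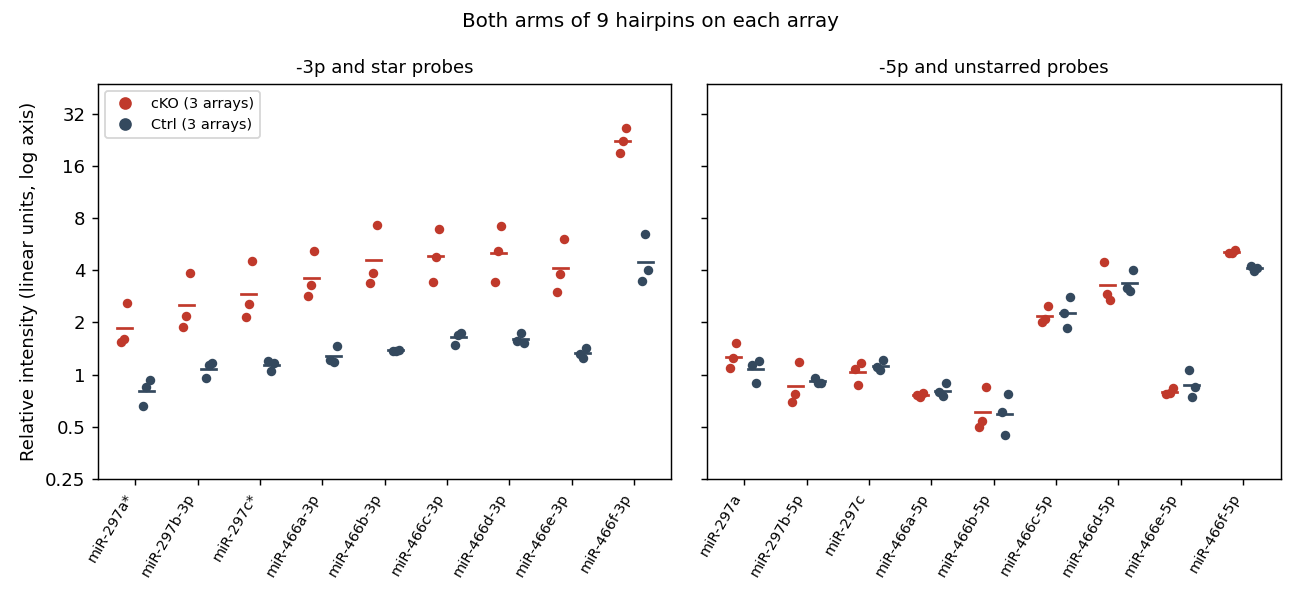
Relative intensity (log axis) of the 3p or star probe (left) and the 5p or unstarred probe (right) of 9 hairpins, with cKO arrays in red left of Ctrl arrays in blue and bars at the geometric means. On the left cKO and Ctrl arrays do not overlap for any of the 9 probes, and on the right they overlap for all but miR-466f-5p.

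The arms of a hairpin were then set against each other within each array, so that a factor that scales a whole array cancels. The log2 value of the 3p or star probe minus that of its partner, averaged over the 9 hairpins, was 1.32, 1.65 and 2.04 in cKO, against -0.06, 0.34 and 0.02 in Ctrl. Every cKO array lay above every Ctrl array. The means were 1.67 ± 0.36 over the cKO arrays and 0.10 ± 0.21 over the Ctrl arrays (SD, n = 3 each), and the change, cKO minus Ctrl, was 1.57. Since different probes bind with different strength, only this change can be read, not which arm is the more abundant. A change of the ratio shows that the signals of the paired probes changed unequally. It does not show that the partner arm stayed level, nor which RNA gave the signals.

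The change differed among hairpins. It was largest for miR-466f, where the arm difference was 1.93, 2.16 and 2.34 in cKO, against -0.28, 0.72 and -0.04 in Ctrl, a change of 2.01. It was smallest for miR-297a, where it was 0.50, 0.37 and 0.78 in cKO, against -0.80, -0.08 and -0.38 in Ctrl, a change of 0.97. The other 7 lay between, from 1.31 for miR-297b to 1.77 for miR-466e. In all 9 the 3 cKO arrays lay above the 3 Ctrl arrays. The family was chosen for its differences, and the same share over the arm pairs of all mouse probes was not computed. With the arrays paired by mouse number, the mean change was 1.38, 1.31 and 2.03 in pairs 1 to 3. Within each pair the smallest log2 difference of a 3p or star probe (0.85, 0.93 and 1.495) exceeded the largest of a partner (0.50, 0.48 and 0.40). After quantile normalization the lowest 3p or star difference was 0.78 and the highest partner difference -0.11, and with the random-sequence median subtracted they were 1.58 and 0.39. The arms also kept this order without any 1 array. Settings that shift all probes of an array alike, or that change only the test, cannot alter it.

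**Figure D3:**
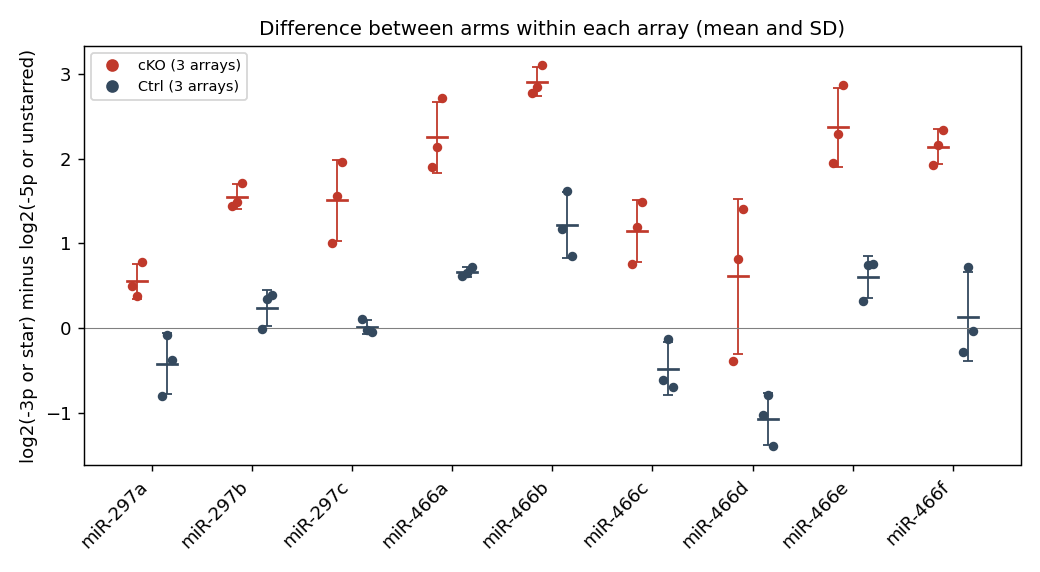
Log2 value of the 3p or star probe minus that of the 5p or unstarred probe of the same hairpin on each array, with group mean and SD (n = 3 each), cKO in red left of Ctrl in blue. In each of the 9 hairpins the 3 cKO points lie above the 3 Ctrl points, with changes from 0.97 to 2.01.

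Probes with no partner arm fell on both sides as well. miR-466i, which RefSeq places on chromosome 13, had the largest difference of the family. It read 11.5, 13.0 and 17.6 in cKO, against 1.87, 2.85 and 2.60 in Ctrl. The groups were far apart, with a log2 difference of 2.52 ± 0.31 (SE), a fold of 5.75. The UG-rich miR-466k read 19.7, 15.2 and 15.5 in cKO, against 16.7, 13.8 and 19.4 in Ctrl. The groups overlapped throughout, and the log2 difference was 0.02 ± 0.27 (SE). miR-466j, also UG-rich, read 6.45, 5.92 and 7.89 in cKO, against 5.50, 6.61 and 5.44 in Ctrl, with a log2 difference of 0.20 ± 0.29 (SE). By RefSeq the genes of miR-466i, miR-466j and miR-466k all lie outside Sfmbt2. Probes named for genes outside the cluster thus included a higher one and overlapping ones, as did those named for genes inside it. Which locus gave the RNA they read was not tested.

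miR-466l, which in mouse macrophages is known to stabilise interleukin-10 messenger RNA, was near background. It read 0.435, 0.433 and 0.662 in cKO, against 0.362, 0.446 and 0.402 in Ctrl. The groups overlapped, and only cKO replicate 3 read above all Ctrl arrays. All 3 cKO arrays and no Ctrl array exceeded background, but that level was lower on cKO arrays (0.377 to 0.431) than on Ctrl arrays (0.423 to 0.463). With Ctrl arrays raised to the background level, the fold between the geometric means was 1.13. It was not past the threshold (log2 difference 0.31 ± 0.17, SE).

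For miR-466g and miR-466h the mature and the -P probe of one name traded places. The suffix -P is taken here to mean a precursor region, although the labels leave it undefined. miR-466g read 4.12, 5.08 and 6.15 in cKO, against 1.34, 1.61 and 1.33 in Ctrl. The groups were apart, with a log2 difference of 1.83 ± 0.28 (SE). Its -P probe read 3.58, 3.68 and 3.75 in cKO, against 3.91, 3.27 and 3.55 in Ctrl, where the groups overlapped (0.04 ± 0.27, SE). miR-466h, an apoptosis-promoting miRNA in cultured mouse and hamster cells, read 2.58, 2.37 and 2.62 in cKO, against 2.29, 2.35 and 2.62 in Ctrl. These groups overlapped too (0.06 ± 0.26, SE). Its -P probe read 17.2, 19.6 and 35.7 in cKO, against 4.66, 6.63 and 6.87 in Ctrl. The groups were far apart, with a log2 difference of 1.94 ± 0.33 (SE), a call that ended after quantile normalization.

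Of the 4 -P probes of miR-297a, 2 carried signal on all arrays. The probe of copy 5 read 0.646, 0.827 and 1.25 in cKO, against 0.517, 0.546 and 0.525 in Ctrl. Its groups were apart, but at a log2 difference of 0.73 ± 0.22 (SE) it was just outside the threshold. It passed with the mouse number as a block, with values floored at the background level, and without cKO replicate 1. The probe of copy 6 read 0.928, 1.13 and 1.31 in cKO, against 0.983, 1.08 and 1.00 in Ctrl, with overlapping groups. Those of copies 1 and 2 each exceeded background on 1 of 3 cKO arrays and on no Ctrl array, and no fold is given for them.

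The probes with human names served as a check. Human miR-466 read 6.86, 6.99 and 8.40 in cKO, against 1.14, 2.12 and 1.52 in Ctrl. The groups were far apart, with a log2 difference of 2.26. Its -P probe read 1.90, 2.12 and 3.44 in cKO, against 2.54, 2.51 and 2.93 in Ctrl, and the groups overlapped. Human miR-297 read 0.933, 0.909 and 1.25 in cKO, against 0.921, 0.999 and 1.13 in Ctrl, with overlapping groups and a log2 difference of 0.01. The human miR-297 -P probe was above background on no array. These probes were read on mouse RNA, and which RNA bound them was not tested.

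**Figure D4:**
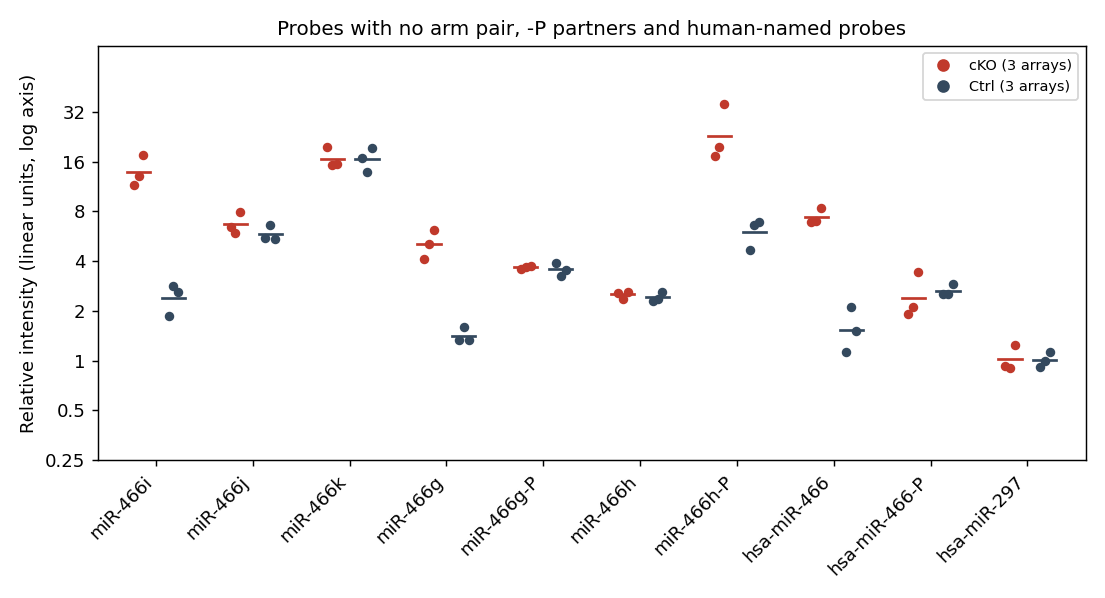
Relative intensity (log axis) of miR-466i, miR-466j and miR-466k, of the mature and -P probes of miR-466g and miR-466h, and of human-named probes, with cKO arrays in red left of Ctrl arrays in blue and bars at the geometric means. The groups are apart for miR-466i, miR-466g, miR-466h-P and human miR-466 and overlap for the other 6.

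The contrast between miR-466i and its UG-rich relatives could be followed beyond the family for mouse probes with a RefSeq mature sequence (189 by identical name, and miR-466i). The hexamers ACACAC and GUGUGU, each the reverse complement of the other, were chosen after the values were seen, and the miRNA strand was searched. Of the 190 probes, 3.16% hold ACACAC and 3.16% hold GUGUGU, against 0.655% and 1.01% of all 1679 RefSeq mature sequences. The 6 probes with ACACAC had a median log2 difference of 0.71 and ranged from -0.09 to 2.52. The 6 with GUGUGU had a median of 0.18 and ranged from -0.0043 to 0.29, and all 190 had a median of 0.04. Past the threshold as higher were 2 of the 6 with ACACAC (miR-466i and miR-467f), 0 of the 6 with GUGUGU and 8 of all 190. Of the 6 with ACACAC, miR-362-3p and miR-568 were above background on no array. Some of these probes are themselves repeat miRNAs that were seen to differ beforehand, so this is a description of 12 probes.

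Some of these probes are shown beside the family's own sequences, again with the seed in capitals. miR-467g, also with ACACAC, is not shown. Its log2 difference was 0.63 ± 0.19 (SE), not past the threshold, and it exceeded background on 1 of 3 Ctrl arrays. RefSeq (GRCm38.p6) places miR-467f at chr11:69635419-69635439 on the minus strand, miR-574-3p at chr5:64970364-64970385 on the plus strand, miR-574-5p at chr5:64970328-64970350 on the plus strand and miR-1187 at chr5:82798964-82798986 on the minus strand.
miR-467f: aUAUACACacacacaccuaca
miR-574-3p: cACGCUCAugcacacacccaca
miR-574-5p: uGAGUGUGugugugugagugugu
miR-1187: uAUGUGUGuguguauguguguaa
The CA-rich miR-467f averaged 15.2 ± 2.53 on cKO arrays and 2.67 ± 0.365 on Ctrl arrays, and miR-574-3p 6.12 ± 2.07 on cKO arrays and 3.45 ± 0.507 on Ctrl arrays (SD, n = 3 each). The UG-rich miR-574-5p averaged 18.1 ± 1.71 on cKO arrays and 16.4 ± 3.12 on Ctrl arrays, and miR-1187 2.87 ± 0.163 on cKO arrays and 2.54 ± 0.884 on Ctrl arrays (SD, n = 3 each). The arms of miR-574 come from 1 hairpin, and cKO and Ctrl arrays were apart for its CA-rich arm and overlapped for its UG-rich arm, with neither past the threshold. The -P probe of miR-1187 averaged 34.9 ± 6.21 on cKO arrays and 7.64 ± 1.23 on Ctrl arrays (SD, n = 3 each), past the threshold, unlike its mature probe. The related probes of miR-467 and miR-669 were past the threshold as higher in 6 of 16 and 11 of 27 and as lower in none, where 6.46% of all mouse probes were higher and 0.369% lower. In a fit without -P probes, 8 of the remaining 28 were past it, all as higher, where 58 of 723 mouse probes were higher. The median log2 differences in the main fit were 0.37 over the miR-467 probes and 0.09 over the miR-669 probes. Most of the miR-669 probes past the threshold were -P probes, which name no arm. A division by arm could be read there only for miR-467a and miR-467e, whose unstarred arms were above background on all arrays. miR-467a*, miR-467b*, miR-467d* and miR-467e* were higher by 1.05, 1.57, 2.23 and 1.55, and miR-669h-3p by 1.24, all past the threshold. None of their partner arms was past it, but miR-467b, miR-467d and miR-669h-5p were not above background on all arrays of either group.

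Array 3 of the cKO group read highest in most of the family. It was the highest cKO array in all 9 probes of the 3p or star arm, in 8 of the 9 partners and in 27 of 31 members, against 24.1% of all mouse probes. The highest cKO array over all mouse probes was replicate 1, in 53.2%. The 6 snoRNA and GAPDH probes, which are no miRNAs, followed the same array, with mean log2 values of -0.47, -0.45 and 0.04 in cKO, against -0.95, -0.86 and -0.79 in Ctrl, and their part in the level differences was not tested. Without cKO replicate 3, 12 members were still past the threshold, the same 12, and the mean arm change was 1.39. Members with like repeats may bind the same RNA, so the 12 probes past the threshold need not be 12 separate miRNAs.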

How the data were processed

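Per the label protocols, total RNA was reverse transcribed with biotin-labelled octamers and read on an Axon scanner after binding of streptavidin-Alexa647. The authors deposited linear relative intensity for 2990 probes on 6 arrays. The sources used here do not give the image software, background correction or normalization. Multiplied by 1 constant per array, 829 to 987.5, the highest value reached the 16-bit limit of 65535 and at least 99.967% of values were multiples of 0.25, within 0.01.

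The log2 of these values was tested without further normalization over 1083 mouse-named probes with limma 3.58.1 in R 4.3.3 (two-sided, moderated variances following the intensity trend, threshold 0.05 on the Benjamini-Hochberg adjusted p). The fit was run on simulated data with independent noise of the fitted variances, which cannot show the effect of shifts shared by the probes of an array. No p is given for members. Arm pairs are 3p with 5p, and star with unstarred. Sequences come from RefSeq tables (GRCm38.p6). Figures used Python 3.11.15 and matplotlib 3.10.9.

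Members and lists were chosen with earlier results of these data known. Values per array are given for the 8 members with the largest change past the threshold, the 3 brightest, the 2 nearest in rank on each side of the threshold, both arms of every pair, and human miR-466 and miR-297; other members named were chosen after their values were seen. Deviations from the group mean correlated weakly between samples of the same mouse number (0.104, 0.124 and 0.178 over mouse probes), and cKO 2 with Ctrl 1 gave 0.114. The other 5 unmatched pairs lay between -0.208 and 0.00843. Centring within each group of 3 arrays forces correlations of both signs, so these values cannot show that the numbers mark pairs. The pairing comes from these data alone, since the labels do not say that numbers mark litters. The number of arrays limits the precision.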

Additional observations from a re-analysis of the deposited data

Results flagged for a closer look

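The probe named for human miR-466 lies outside the mouse comparison and was higher on all 3 cKO arrays than on any Ctrl array, with a log2 difference of 2.26. It averaged 7.42 ± 0.857 on cKO arrays and 1.59 ± 0.494 on Ctrl arrays (SD, n = 3 each), above background on all 6 arrays. Which mouse RNA binds it was not tested.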

How the results depend on the processing

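Members past the threshold numbered 12 in the main fit, 3 after quantile normalization (miR-466i, miR-466f-3p and miR-466g) and 7 to 13 when 1 array was left out, lowest without Ctrl replicate 1. With the replicate block 13 passed, the same 12 and miR-297a5-P, and the block changed no other call of a member; 95 mouse probes passed with it. With arrays scaled by their snoRNA and GAPDH probes, 10 were higher and 1, miR-297a-1-P, lower, and the median difference of the members turned to -0.262, with -0.54 for all mouse probes. The members' median was 0.0683 after quantile normalization, 0.607 with the random-sequence median subtracted and 0.119 to 0.359 without 1 array, lowest without cKO replicate 3. The median over all mouse probes was 0.0816 without cKO replicate 3. The partner arms had differences of -0.71 to -0.26 under snoRNA and GAPDH scaling and of -0.61 to -0.11 after quantile normalization, so their direction depends on the scaling. The cause was not tested. The arm change was 1.39 to 1.75 without 1 array and 1.57 to 1.86 with a floor or background subtraction. Over all mouse probes 74 passed (70 higher, 4 lower), 40 after quantile normalization (32 higher, 8 lower), 345 with snoRNA and GAPDH scaling (35 higher, 310 lower) and 34 to 129 without 1 array, the extremes without Ctrl replicate 1 and cKO replicate 3. Of the miR-467 and miR-669 probes 17 passed, and 12 to 17 without 1 array. Without -P probes, where fewer were tested, 8 of 28 passed, against 60 of 723 mouse probes. Scanner units, which moved the median of all mouse probes to 0.14, the settings for miR-467, miR-669 and single probes, and background subtraction for the arms were chosen after seeing the data. Near-background probes such as miR-466l limit what can be seen.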
